A study of Mus musculus with 18 samples.

Results

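Gene expression in the hippocampus of aged mice with impaired spatial memory was compared with that of young mice. The members were the 6 samples titled aged impaired and the 6 titled young, 12 of the 18 samples in the series. The other 6, titled aged unimpaired, entered the fit for its estimate of spread and are given beside the results. All 18 were mouse hippocampus total RNA, labelled with biotin and hybridised to 1 Affymetrix array each. The aged impaired samples carry the description spatial memory impaired, and the young samples the description spatial memory unimpaired. Between these groups age and memory state therefore cannot be told apart. The labels name no age, strain, sex, memory task or hour of collection. The labels do not say that each sample came from a separate animal, so the p-values refer to the variation among samples, which can include technical variation.

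The hippocampus stores spatial memories in circuits that run from the dentate gyrus through CA3 to CA1. In the ageing brain, microglia (its resident macrophages) and astrocytes take on reactive states marked by known sets of transcripts, and few new granule neurons are still born in the dentate gyrus. Proteins that enter the secretory pathway are folded by chaperones of the endoplasmic reticulum, whose genes are switched on by the unfolded protein response when misfolded protein builds up. Cst7, which encodes cystatin F, a protease inhibitor of activated microglia, and Manf, a soluble factor of the endoplasmic reticulum that is secreted under stress, are the markers of the comparison.

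Values are log2 of the scaled signal plus 16, differences are aged impaired minus young on that scale, ± gives the model's standard error except where SD is written, and n = 6 per group throughout. A gene was called, and is said to have risen or fallen, at a Benjamini-Hochberg adjusted p under 0.05 in limma over all 27022 tested probe sets. The median deposited signal per array was 27.3 ± 1.25 (SD) in aged impaired and 27.7 ± 1.60 (SD) in young samples. The 3' to 5' log2 ratio of control transcripts was 0.304 ± 0.0501 (SD) and 0.307 ± 0.0735 (SD). Choroid plexus transcripts, which come from tissue beside the hippocampus, averaged 9.46 ± 1.11 (SD) and 9.49 ± 1.10 (SD), and ranged within each group from 7.43 to 10.6 and from 7.61 to 10.4. The defining transcripts of hippocampal cell types were present on every array, with Wfs1 of CA1 at 10.97 or more, Pcp4 of CA2 at 12.94 or more and Prox1 of dentate granule neurons at 7.90 or more. The mean of myelin genes minus the mean of presynaptic genes was -1.54 ± 0.0958 (SD) in aged impaired and -1.99 ± 0.227 (SD) in young samples, and differed in a 2-sided exact permutation test (p = 0.00433, adjusted p = 0.0173 over 4 such measures, smallest possible p 0.00216). The other 3 measures had p from 0.660 to 0.963. In tissue RNA, fewer cells of a type and less RNA per cell cannot be told apart. With the myelin measure as a covariate, which itself differs between the groups, 14 probe sets were called, and of the 101 called genes named here 8 kept their call: Manf, Hspa5, Sdf2l1, Pdia6, Dbp, Pisd-ps3, Pcdhb9 and Mpzl3.

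Between aged impaired and young samples, 440 of 27022 probe sets were called (1.63%), of which 278 rose (1.03%) and 162 fell (0.6%). At an unadjusted p under 0.05 there were 4274. Taking each named gene on its brightest probe set, 249 of 13121 genes were called (1.9%), 171 higher (1.3%) and 78 lower (0.594%). The 6 values of one group lay wholly above the 6 of the other for 305 genes (2.32% of those tested), among them 174 of the 249 called. The median difference was 0.61 among the genes that rose and -0.42 among those that fell, and 27 genes rose by over 1 while 0 fell by over 1. Over all 13121 genes the median difference was -0.0030, and over all 27022 probe sets the median standard error was 0.124. Of 128 called genes with another tested probe set, 39 had at least 1 of opposite sign. The counts moved by over 1.5 times when aged impaired replicates 2, 3 or 6 (266, 270 and 228 probe sets) or young replicates 1, 3, 5 or 6 (291, 292, 259 and 228) were left out.

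**Figure D1:**
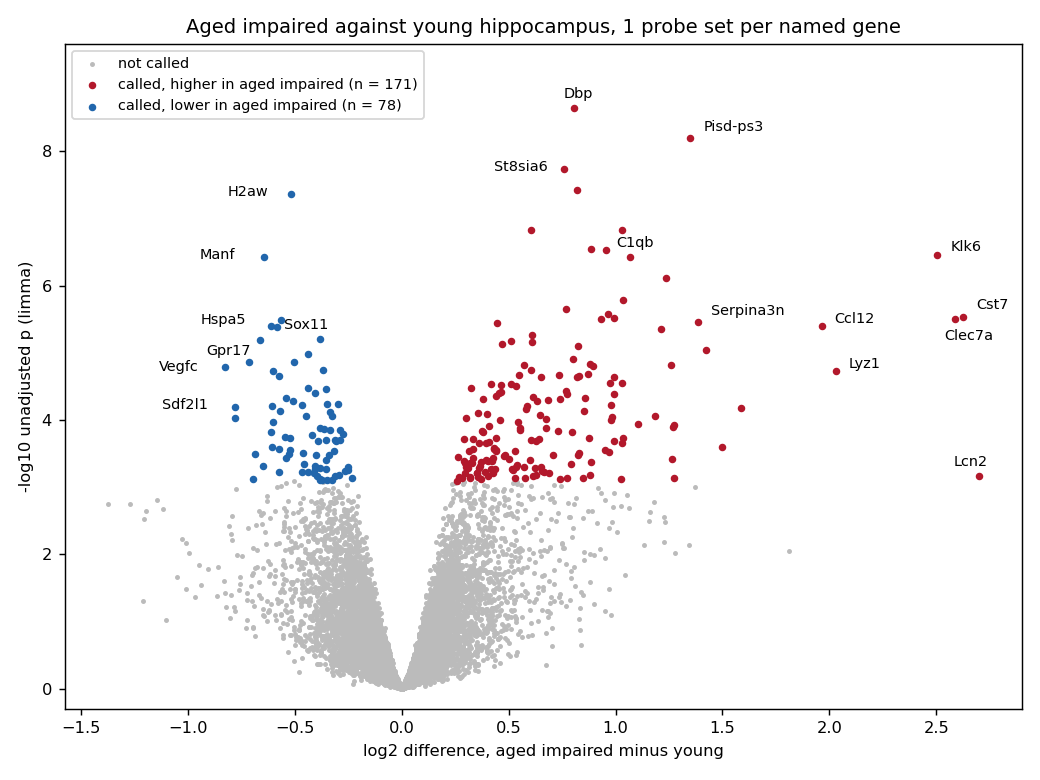
Log2 difference between aged impaired and young samples (x axis) against -log10 of the unadjusted limma p (y axis), with 1 point per named gene on its brightest probe set and 6 samples per group. The 171 genes called higher reach differences of over 2.5 while the 78 called lower lie above -1.

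The genes of lowest p among those that rose came from several functions. Dbp, a transcription factor whose level follows the circadian clock, ranged from 10.36 to 10.48 (median 10.45) in young and from 11.01 to 11.42 (median 11.27) in aged impaired samples, a difference of 0.81 ± 0.07 or 1.75-fold (adjusted p = 3.00e-05). The 2 groups did not overlap, and a second probe set of the gene rose by 0.67. Pisd-ps3, annotated as a pseudogene of a mitochondrial lipid enzyme, ranged from 10.96 to 11.57 (median 11.24) in young and from 12.30 to 12.97 (median 12.58) in aged impaired samples (1.35 ± 0.13, adjusted p = 5.63e-05). Its 4 other tested probe sets were higher too, and its probes may match other transcripts. St8sia6, a sialyltransferase, rose from a young range of 7.47 to 7.78 to an aged impaired range of 8.31 to 8.53 with no overlap (0.76 ± 0.08, adjusted p = 1.08e-04). Pcdhb9, a clustered protocadherin of neuronal surfaces with close paralogs, rose by 0.82 ± 0.09 and Pmp22, a protein of peripheral myelin that other cells also make, by 0.60 ± 0.07 (adjusted p = 1.08e-04 and 2.64e-04). Wnt9a, a secreted Wnt ligand, rose by 0.89 ± 0.15 (adjusted p = 0.00549), and Qk, an RNA-binding regulator of splicing in oligodendrocytes, by 0.42 ± 0.07 (adjusted p = 0.00822). Of the 6 other probe sets of Qk, 1 had a lower mean in the aged impaired samples.

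Among the genes of largest rise, Lcn2, an iron-carrying secreted protein of reactive astrocytes, ranged from 4.12 to 5.47 (median 5.00) in young and from 6.26 to 10.22 (median 6.88) in aged impaired samples (2.70 ± 0.66, adjusted p = 0.0459). Aged impaired replicates 2 and 6 were highest, at 10.22 and 9.18, and the call ended without any 1 of 9 of the 12 samples (adjusted p up to 0.107). Tnni1, a slow muscle troponin (1.50 ± 0.33), Vsig2 (1.27 ± 0.26) and Spag6, a protein of motile cilia (1.27 ± 0.26), also rose from young medians of 5.87, 5.16 and 5.69. These levels, like those of Lcn2, Cst7 and Clec7a, lie near the filter's lower edge of 5.92, so their log2 differences would change with another offset and are not turned into folds. Lcn2, Vsig2, Spag6 and, described later, Cst7, Ccl12, Cd33 and Wfdc17 had a young mean below that edge and so passed the filter only through the aged samples, while Ffar2 and Trp63, which fell, had an aged impaired mean below it and passed through the other samples. Their calls, also where counted in a list, describe genes that had to differ to be tested. The call of Spag6 ended without young replicate 6 (adjusted p = 0.0505), and that of Tnni1 without any 1 of 6 samples (adjusted p up to 0.0680).

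The genes of lowest p that fell included H2aw, a histone H2A gene, Htr1a, the serotonin 1A receptor that is dense in the hippocampus, and Rasl10a, a small GTPase. H2aw ranged from 10.69 to 10.84 (median 10.76) in young and from 10.12 to 10.38 (median 10.25) in aged impaired samples and fell by 0.52 ± 0.06 (adjusted p = 1.08e-04). Htr1a ranged from 9.19 to 9.71 (median 9.47) in young and from 8.77 to 9.05 (median 8.87) in aged impaired samples (-0.56 ± 0.08, adjusted p = 0.00210), and Rasl10a ranged from 10.72 to 11.18 (median 10.91) in young and from 10.08 to 10.41 (median 10.32) in aged impaired samples (-0.66 ± 0.10, adjusted p = 0.00313). In all of these the highest aged impaired sample was below the lowest young one. Pid1, a regulator of insulin signalling, fell with a smaller difference of -0.38 ± 0.06 and as little overlap. Fam171a2 (-0.60 ± 0.12), Mpzl3 (-0.60 ± 0.10) and Trp63, a relative of p53 (-0.60 ± 0.12), also fell without overlap. Traf4, an adaptor of tumour necrosis factor receptors, fell by 0.78 ± 0.16 and Slc2a6, a lysosomal sugar transporter of macrophages, by 0.61 ± 0.13, each with overlapping groups (adjusted p = 0.0160 and 0.0210). Ffar2, a receptor for short-chain fatty acids (-0.69 ± 0.17), BC030500 (-0.68 ± 0.15), Chst9, a sulfotransferase (-0.61 ± 0.13), and Lix1l (-0.38 ± 0.09) were called at adjusted p from 0.0279 to 0.0489, and each call ended without any 1 of 6 to 11 samples (highest adjusted p 0.101, 0.0717, 0.0684 and 0.112).

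Genes of protein folding in the endoplasmic reticulum had the most falls of any list. Of 39 tested genes of that list, 8 fell and 0 rose, or 20.5% against 0.594% of all named genes. The list's median difference was -0.10, against -0.0030 over all genes, and 25 of 39 had a lower mean. Those that fell were Manf, Hspa5, Hyou1, Sdf2l1, Calr, Xbp1, Pdia6 and Pdia3. Manf ranged from 11.18 to 11.59 (median 11.36) in young and from 10.59 to 10.95 (median 10.68) in aged impaired samples, a 1.56-fold lower level (-0.64 ± 0.08, adjusted p = 4.34e-04). The lowest young sample stood above the highest aged impaired sample. Leaving out any 1 sample gave an adjusted p of at most 0.00197.

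Hspa5, better known as BiP, an HSP70 chaperone of that compartment, ranged from 13.20 to 13.62 (median 13.35) in young and from 12.56 to 12.88 (median 12.83) in aged impaired samples (-0.61 ± 0.09, 1.53-fold lower, adjusted p = 0.00232). A second probe set fell by 0.70 and the third had a difference of -0.32 that did not pass. Sdf2l1, a partner of Hspa5, ranged from 8.78 to 9.59 (median 9.14) in young and from 7.91 to 8.80 (median 8.34) in aged impaired samples, with the 2 ranges touching (-0.78 ± 0.15, adjusted p = 0.0128). Hyou1, a nucleotide exchange factor for Hspa5, fell by 0.44 ± 0.08, and the lectin chaperone Calr by 0.34 ± 0.07 (adjusted p = 0.00888 and 0.0143). All 3 probe sets of Calr were called. Pdia6 and Pdia3, which form disulfide bonds, fell by 0.55 ± 0.12 and 0.31 ± 0.08 (adjusted p = 0.0243 and 0.0459). Xbp1, a transcription factor of the unfolded protein response, fell by 0.36 ± 0.08 (adjusted p = 0.0201), with all of its 3 other probe sets lower. The call of Pdia6 ended without aged impaired replicate 4 or young replicate 3 (adjusted p up to 0.0536), that of Xbp1 without aged impaired replicate 6 (adjusted p = 0.0520), and that of Pdia3 without any 1 of 11 samples (adjusted p up to 0.0876).

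Several members of the same family missed the threshold with values of similar sign: Creld2 (-0.50 ± 0.12, adjusted p = 0.0503), Hsp90b1, the chaperone GRP94 (-0.35 ± 0.09, adjusted p = 0.0579), and Dnajc3 (-0.32 ± 0.11, adjusted p = 0.163). Only 4 list members fell, against 8, once the myelin measure was a covariate, and the median was then -0.15. Leaving out any 1 sample left 6 to 9 members that fell.

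Some promoters of this group hold a known sequence of the unfolded protein response. The list was drawn up from genes of that response, so the share of its promoters with the sequence is not independent of the choice of genes. The endoplasmic reticulum stress element is the run CCAAT, 9 bases of any kind, then CCACG, to which ATF6 and XBP1 are known to bind together with NF-Y. It was searched on both strands in the 250 bases before and 50 after each gene's start. It occurred in 37 of 27025 RefSeq promoters (0.137%), in 10 of the 34 list members with a promoter (29.4%), and in 3 of the 6 called members with one (Hspa5, Pdia6 and Calr). A match is a description of letters and was not tested for factor binding here. The 60-base stretches below, from RefSeq promoters on GRCm38.p6, run 5′ to 3′ on the gene's strand and all lie before the start, with the element's fixed letters in capitals. They show the element in the 3 called genes and in Creld2 and Hsp90b1, which were near the threshold. Hspa5 is on the + strand at chr2:34772004-34772063 and has the element 65 bases before its start, and Pdia6 is on the + strand at chr12:17266470-17266529 with the element 98 bases before. Calr, on the - strand at chr8:84847055-84847114, and Creld2, on the + strand at chr15:88819499-88819558, carry it as the reverse complement, 162 and 126 bases before the start. Hsp90b1, on the - strand at chr10:86705618-86705677, has it 212 bases before, with another match nearer the start.
Hspa5: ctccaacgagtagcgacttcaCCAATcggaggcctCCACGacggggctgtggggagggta
Pdia6: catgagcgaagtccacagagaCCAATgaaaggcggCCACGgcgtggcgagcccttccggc
Calr: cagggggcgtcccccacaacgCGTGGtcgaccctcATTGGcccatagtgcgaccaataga
Creld2: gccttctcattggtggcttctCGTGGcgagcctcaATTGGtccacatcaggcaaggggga
Hsp90b1: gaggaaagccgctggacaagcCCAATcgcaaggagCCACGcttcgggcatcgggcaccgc

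Read against the values, the 10 list members with the element had a lowest difference of -0.61 (Hspa5). Besides those named, Canx, a lectin chaperone (-0.13), Syvn1, a ubiquitin ligase (-0.18), Derl3 (-0.26) and Ero1b, an oxidase (0.08), carried it and did not pass. Ero1b was the only one of the 10 with a higher mean, and with the myelin measure as a covariate, or on its other probe set, its sign was the opposite. Sdf2l1, Xbp1 and Pdia3 had no match in this window, and the promoter table does not list Manf and Hyou1. A related element, ATTGG, 1 base, CCACG, was in 12 of 27025 genes (0.044%) and in 2 of 34 list members (5.9%), Dnajb11 and Herpud1.

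Cytosolic heat shock proteins and their partners, which fold proteins outside the endoplasmic reticulum, also had falls. Of 27 tested, 4 fell (14.8%, against 0.594% of all named genes), 0 rose, 24 had a lower mean, and the median difference was -0.15. Chordc1, a cochaperone of HSP90, ranged from 10.98 to 11.19 (median 11.08) in young and from 10.46 to 10.92 (median 10.64) in aged impaired samples (-0.44 ± 0.07, adjusted p = 0.00453), with no overlap. Ahsa1, which stimulates HSP90 (-0.35 ± 0.07), Hsph1, of the HSP110 family (-0.31 ± 0.07), and Stip1, which joins HSP70 to HSP90 (-0.40 ± 0.09), fell as well (adjusted p = 0.0120, 0.0249 and 0.0323). The small heat shock protein Hspb1 (-0.63 ± 0.17) and the mitochondrial chaperonin Hspd1 (-0.25 ± 0.07) had adjusted p of 0.0717 and 0.0914. The call of Hsph1 ended without aged impaired replicate 2 or young replicates 3 or 6 (adjusted p up to 0.0604), and that of Stip1 without any 1 of 7 samples (up to 0.0691). Without young replicate 6, 2 members of the list fell. None fell (0 of 27) when the myelin measure was added as a covariate, and the median was -0.16.

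Transcripts of activated microglia had the highest median difference of the lists. Of 27 tested genes that mark the disease-associated state, 10 rose (37.0%, against 1.3% of all named genes) and 0 fell, with a median difference of 0.88. Cst7 ranged from 4.39 to 5.07 (median 4.79) in young and from 6.45 to 8.13 (median 7.32) in aged impaired samples, a difference of 2.63 ± 0.39 (adjusted p = 0.00209). All young values lay below the filter's edge of 5.92, so Cst7 entered the test only through the aged samples, and its call does not count as support beyond its measured levels. No young sample reached the lowest aged impaired one, and leaving out any 1 sample gave an adjusted p of at most 0.00762. Clec7a, a receptor for fungal glucans that marks phagocytic microglia, ranged from 4.39 to 6.69 (median 6.32) in young and from 8.11 to 9.51 (median 8.48) in aged impaired samples (2.59 ± 0.39, adjusted p = 0.00209). The lowest young value was that of replicate 6, which stood apart, and the other young samples began at 6.18. Gpnmb, a lysosomal membrane glycoprotein, rose from a young range of 6.85 to 7.35 to an aged impaired range of 8.01 to 8.57 (1.21 ± 0.19, adjusted p = 0.00235).

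Trem2, the lipid-sensing receptor of microglia, and Tyrobp, its signalling adaptor, rose by 1.26 ± 0.21 and 0.96 ± 0.14 (adjusted p = 0.00548 and 0.00201). Tyrobp went from a young range of 9.37 to 9.98 to an aged impaired range of 10.49 to 11.10, a 1.95-fold rise with no overlap. Lysozyme was called on both of its genes, Lyz2 at 1.58 ± 0.31 and Lyz1 at 2.03 ± 0.35; these are near-identical copies whose probes may share signal. Cd68, a lysosomal protein of phagocytes (0.98 ± 0.20), Cd52 (1.11 ± 0.22), Ctsz, a lysosomal protease (0.88 ± 0.19), and Lgals3, a galectin (1.27 ± 0.31), completed the 10. The call of Lgals3 ended without any 1 of 10 samples (adjusted p up to 0.108), and that of Ctsz without aged impaired replicates 2 or 6 or young replicates 3 or 6 (up to 0.0598). The count was 8 without aged impaired replicates 2 or 6, or without young replicate 6. With the myelin measure as a covariate the list's median was 0.17 and 0 members rose.

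**Figure D2:**
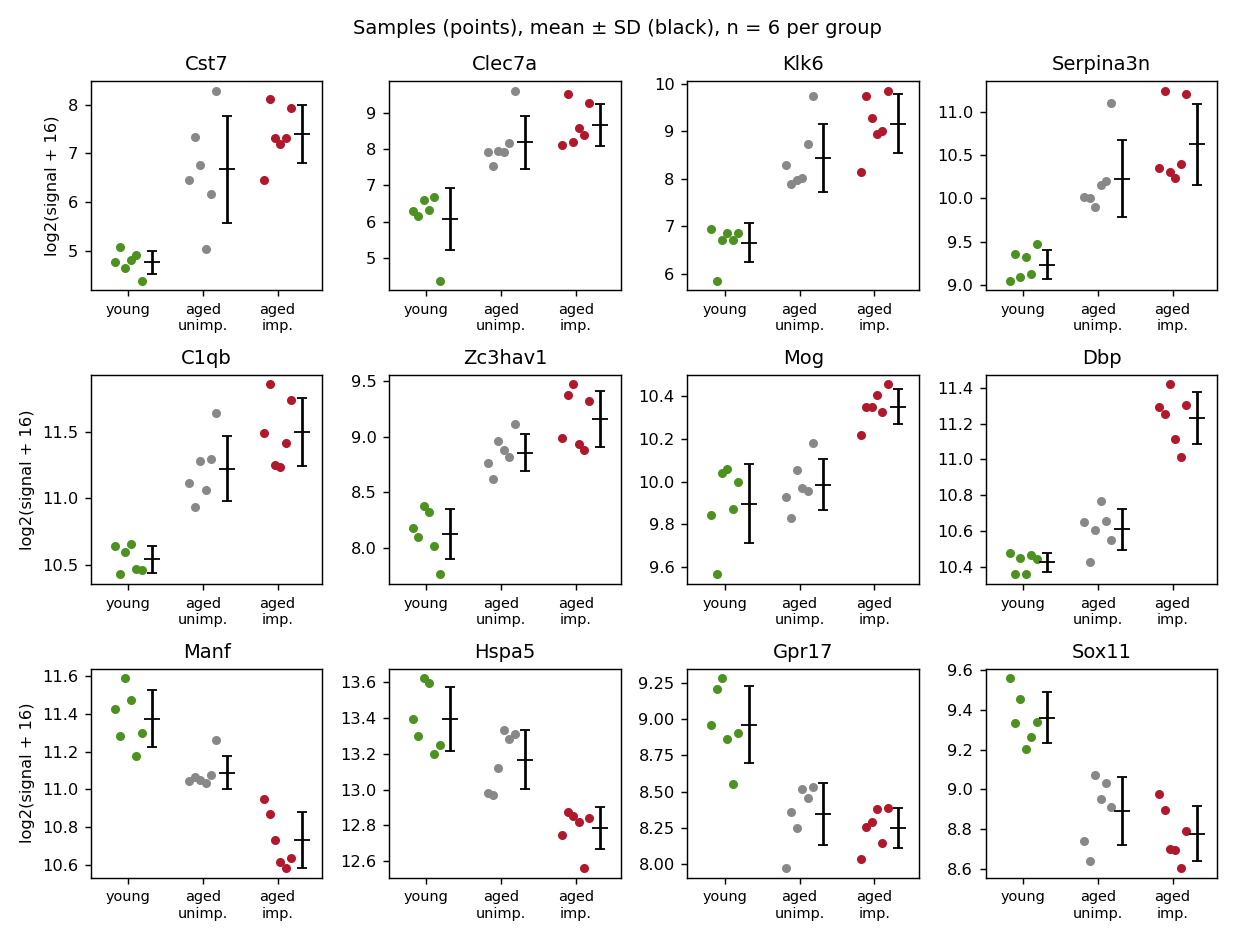
Log2(signal + 16) of 12 genes in each sample (points), with the group mean and SD in black, for 6 young, 6 aged unimpaired and 6 aged impaired samples. In every panel the young and aged impaired points do not overlap, and the aged unimpaired points of Dbp lie between 10.43 and 10.77, below all aged impaired points.

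Genes listed as homeostatic in microglia, not all of which are confined to resting cells, had a lower median difference. Of 19 tested, 4 rose (21.1%, against 1.3% of all named genes), 0 fell, and the median difference was 0.29. Aif1, which encodes the microglial protein Iba1, ranged from 7.88 to 8.31 (median 8.09) in young and from 8.57 to 8.97 (median 8.72) in aged impaired samples (0.63 ± 0.12, adjusted p = 0.0112). Cd33, an inhibitory receptor for sialic acids, rose by 0.98 ± 0.20 from a young median of 5.87, and Gpr84, a fatty acid receptor, by 0.67 ± 0.16 (adjusted p = 0.0167 and 0.0430). Csf1r, the receptor microglia need to survive, rose by 0.29 ± 0.07, 1.23-fold, with no overlap between groups (adjusted p = 0.0360). P2ry12, a receptor of resting microglia, had a difference of -0.08 and Tmem119 one of 0.35, and these did not pass. Ptprc, the leukocyte antigen CD45, had 0.70 ± 0.19 (adjusted p = 0.0665), and Olfml3 0.38 ± 0.12. The calls of Csf1r and Gpr84 ended without any 1 of 9 and 8 samples (adjusted p up to 0.0833 and 0.0937). The count was 2 without aged impaired replicates 2 or 6 or young replicate 6.

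Complement genes that rose encode the initiating complex and receptors. Of 14 tested, 5 rose (35.7%, against 1.3% of all named genes), 0 fell, and the median difference was 0.28. The 3 chains of C1q, the molecule that tags synapses and debris, all rose: C1qb from a young range of 10.43 to 10.66 to an aged impaired range of 11.24 to 11.86 (0.95 ± 0.12, adjusted p = 4.21e-04), C1qa by 0.93 ± 0.14 and C1qc by 0.80 ± 0.13 (adjusted p = 0.00209 and 0.00516). In each the groups did not overlap, and C1qb was 1.94-fold higher. Itgb2, the shared beta chain of the complement receptors, rose from a young range of 7.13 to 7.42 to an aged impaired range of 7.99 to 8.76 (1.07 ± 0.14, adjusted p = 4.34e-04), and C3ar1, the receptor for C3a, by 1.03 ± 0.22 (adjusted p = 0.0243). Itgam, the alpha chain that pairs with Itgb2, had 0.31 and did not pass. The call of C3ar1 on its brightest probe set ended without any 1 of 5 samples (adjusted p up to 0.0546). A second probe set rose by 1.36, but its young mean of 5.60 lay below the filter's edge of 5.92. It passed the filter only through the aged samples, so its call does not count as support. Adding the myelin measure as a covariate left 0 members that rose.

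Genes of Fc receptor signalling were called at a few members. Of 13 tested, 4 rose (30.8%, against 1.3% of all named genes), 0 fell, and the median difference was 0.23. Fcer1g, the gamma chain shared by Fc receptors, ranged from 8.97 to 9.31 (median 9.03) in young and from 9.58 to 10.27 (median 9.86) in aged impaired samples (0.77 ± 0.11, 1.70-fold, adjusted p = 0.00177). Laptm5, a lysosomal protein of blood-lineage cells (0.61 ± 0.10), and Plek, a substrate of protein kinase C (0.55 ± 0.11), rose beside Tyrobp. Of the 3 other probe sets of Laptm5, 1 had a lower mean. The call of Plek ended without aged impaired replicate 6 (adjusted p = 0.0520). Mpeg1, a pore-forming protein of macrophages, rose by 0.88 ± 0.11 from a young range of 9.04 to 9.42 to an aged impaired range of 9.86 to 10.34 (adjusted p = 4.21e-04), and Wfdc17, a secreted protease inhibitor, by 1.26 ± 0.29 with overlapping groups (adjusted p = 0.0349, up to 0.0799 without 1 sample). The binding motif of the microglial factor PU.1, searched as GAGGAAGT on both strands, was in promoters of 997 of 27025 genes (3.689%). It was in 0 of the 22 disease-associated list members with a promoter.

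Lysosomal genes, which digest what microglia take up, rose in part. Of 25 tested, 5 rose (20%, against 1.3% of all named genes), 0 fell, 23 had a higher mean, and the median difference was 0.20. Ctss, a protease that microglia make in bulk, ranged from 11.61 to 12.20 (median 11.95) in young and from 12.41 to 13.02 (median 12.54) in aged impaired samples (0.68 ± 0.13, 1.61-fold, adjusted p = 0.0111), without overlap. Gusb, a glycosidase (0.43 ± 0.09), Man2b1, a mannosidase (0.43 ± 0.10), and Scarb2, a membrane receptor (0.26 ± 0.06), rose with Ctsz. Their calls ended without any 1 of 6, 9 and 12 samples (adjusted p up to 0.0697, 0.0827 and 0.111), and Man2b1 and Scarb2 each had another probe set of opposite sign near 0. Ctsd, which most cells express (0.36), did not pass. The count was 1 without aged impaired replicates 2 or 6 or young replicate 6.

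Antigen presentation genes were called for class I alone among the members tested here. For this class, which displays peptides from inside the cell, 3 of 12 tested genes rose (25.0%, against 1.3% of all named genes), 0 fell, and the median difference was 0.39. H2-K1, a classical class I heavy chain, ranged from 9.66 to 10.32 (median 10.06) in young and from 10.60 to 11.14 (median 10.86) in aged impaired samples (0.83 ± 0.15, adjusted p = 0.00689) with no overlap, H2-D1 rose by 0.83 ± 0.19 with overlap, and their partner B2m by 0.60 ± 0.14 (adjusted p = 0.0313 and 0.0352). Probes of H2-K1 and H2-D1 can share signal, since the genes are close paralogs. Psmb8, a subunit of the immunoproteasome, had 0.71 ± 0.19 (adjusted p = 0.0722). For class II, which is made by professional presenting cells, 0 of 5 were called and the median was -0.10. H2-Eb1 ranged from 6.80 to 7.48 (median 7.19) in young and from 5.14 to 7.75 (median 6.99) in aged impaired samples. The calls of H2-D1 and B2m ended without any 1 of 6 and 8 samples (adjusted p up to 0.0778 and 0.0792), so 1 class I gene rose without aged impaired replicates 2 or 6 or young replicate 6.

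Of 28 tested genes induced by interferon 4 rose (14.3%, against 1.3% of all named genes) and 0 fell. A higher mean was found for 25 of 28, against 49.2% of all named genes, and the median difference was 0.51. Zc3hav1, an antiviral protein that binds viral RNA, ranged from 7.77 to 8.38 (median 8.14) in young and from 8.88 to 9.47 (median 9.15) in aged impaired samples (1.03 ± 0.12, 2.04-fold, adjusted p = 2.64e-04). Its groups did not overlap, and leaving out any 1 sample gave an adjusted p of at most 0.00130. Rtp4 rose by 1.03 ± 0.22, Ifitm3, which blocks viral entry, by 0.82 ± 0.19, and Xaf1, a partner of apoptosis inhibitors, by 0.71 ± 0.16 (adjusted p = 0.0253, 0.0322 and 0.0323). Without aged impaired replicate 2 or young replicates 1, 3 or 6 the call of Rtp4 ended (adjusted p up to 0.0641), and those of Ifitm3 and Xaf1 ended without any 1 of 9 samples each (up to 0.0751 and 0.0744). Ifit1 (1.03 ± 0.28), Usp18 (0.99 ± 0.26) and Trim30a (0.74 ± 0.19) did not pass (adjusted p = 0.0771, 0.0612 and 0.0543). The list's count was 1 without aged impaired replicate 2, 2 without aged impaired replicate 6, 1 without young replicate 6, and 11 with choroid plexus signal as a covariate. With the myelin measure as a covariate 0 rose and the median was 0.16.

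The interferon-stimulated response element, read here as GAAA, 2 bases of any kind, then GAAA on either strand, was in promoters of 1079 of 27025 genes (3.993%). It was in 13 of the 24 list members with a promoter (54.2%) and in 1 of the 3 called members with one, Ifitm3. The stretches shown were picked from members that hold the element and did not pass, with differences of 1.03 (Ifit1) and 0.74 (Trim30a). Usp18, which was nearer the threshold than Ifit1, was not among the 13 with a match. The stretch of Ifit1 is on the + strand at chr19:34640760-34640819, and that of Trim30a on the - strand at chr7:104465195-104465254. Both lie before the start on GRCm38.p6 RefSeq promoters, 5′ to 3′, with the element's fixed letters in capitals; the element is on the opposite strand, so it reads as TTTC, 2 bases, TTTC. Ifit1 holds it 2 times, 104 and 85 bases before the start, and Trim30a 1 time, 36 bases before.
Ifit1: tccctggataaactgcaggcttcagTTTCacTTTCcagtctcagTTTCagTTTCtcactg
Trim30a: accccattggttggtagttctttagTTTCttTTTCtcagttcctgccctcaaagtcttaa

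Of 18 tested chemokines and cytokines, 2 rose (11.1%, against 1.3% of all named genes), 0 fell, and the median difference was 0.21. Ccl12, which attracts monocytes, ranged from 4.37 to 6.25 (median 5.68) in young and from 7.04 to 7.93 (median 7.43) in aged impaired samples (1.96 ± 0.30, adjusted p = 0.00232), with no overlap and young values near the filter's edge. Il33, an alarm cytokine of oligodendrocytes and astrocytes, rose by 0.58 ± 0.14 (adjusted p = 0.0470, up to 0.0955 without any 1 of 11 samples). Cxcl14 (0.34 ± 0.09) and Ccl6 (0.93 ± 0.24) had adjusted p of 0.0558 and 0.0608. Cx3cl1, the neuronal ligand that calms microglia, had -0.17 and did not pass. The count was 1 without aged impaired replicates 2 or 6 or young replicate 6.

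Reactive astrocyte genes rose in 8 of 20 tested (40%, against 1.3% of all named genes), with 0 that fell and a median difference of 0.66. A higher mean was found for 19, and the 1 with a lower mean was Hspb1 (-0.63), named above. Without aged impaired replicate 2, or with choroid plexus signal as a covariate, 1 member fell. Serpina3n, a secreted protease inhibitor, ranged from 9.05 to 9.47 (median 9.22) in young and from 10.23 to 11.24 (median 10.37) in aged impaired samples (1.39 ± 0.21, 2.61-fold, adjusted p = 0.00215). Within the aged impaired group, replicates 2 and 6 stood at 11.24 and 11.20 and the other 4 at 10.40 or below, still above every young value. Osmr, the receptor of oncostatin M, rose from a young range of 7.17 to 7.67 to an aged impaired range of 8.04 to 8.75 (0.99 ± 0.15, adjusted p = 0.00209). Gfap, the intermediate filament that defines reactive astrocytes, ranged from 12.58 to 13.37 (median 12.76) in young and from 13.47 to 13.96 (median 13.71) in aged impaired samples (0.77 ± 0.14, 1.71-fold, adjusted p = 0.00992), and a second probe set rose by 1.04.

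S100a6, a calcium-binding protein, rose by 0.97 ± 0.17 (adjusted p = 0.00797). Besides Lcn2, the endotoxin receptor Cd14 (0.85 ± 0.21), the sphingosine phosphate receptor S1pr3 (0.77 ± 0.19) and Aspg (0.88 ± 0.21) passed with adjusted p from 0.0450 to 0.0470, and each of these calls ended without any 1 of 9 to 11 samples (highest adjusted p 0.100, 0.111 and 0.0982). The count was 4 without aged impaired replicates 2 or 6 or young replicate 6. Vim, another filament (0.78), and Timp1, a metalloprotease inhibitor (0.93), did not pass on the brightest probe set. Other probe sets of Vim rose by 0.82 and 0.86 (adjusted p = 0.0454 and 0.0477). Of 18 genes of astrocytes at rest 0 were called, with a median of 0.03, among them Aqp4, the water channel (-0.08, with 1 of 2 other probe sets of opposite sign), and S100b (0.21 ± 0.07). Under the myelin covariate the median of the reactive list was 0.26 and 0 members rose.

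Of 21 tested myelin and oligodendrocyte genes 6 rose (28.6%, against 1.3% of all named genes) and 0 fell, with a median difference of 0.32. Klk6, a serine protease of mature oligodendrocytes, ranged from 5.86 to 6.94 (median 6.79) in young and from 8.14 to 9.86 (median 9.15) in aged impaired samples (2.50 ± 0.32, adjusted p = 4.34e-04). The 2 groups did not overlap, with young replicate 2 lowest and apart from the other young samples. Myrf, the transcription factor that drives myelination, rose from a young range of 8.73 to 9.34 to an aged impaired range of 9.56 to 10.41 (0.88 ± 0.15, adjusted p = 0.00544). Mog, on the outer face of myelin, rose by 0.46 ± 0.08, 1.37-fold, with no overlap (adjusted p = 0.00969). Hapln2, a matrix linker at nodes (0.65 ± 0.13), Mag, a glycoprotein that faces the axon (0.63 ± 0.14), and Aspa, which breaks down N-acetylaspartate (0.62 ± 0.15), rose too. The call of Mag ended without aged impaired replicates 2 or 6 or young replicates 2 or 5 (adjusted p up to 0.0602), and that of Aspa without any 1 of 10 samples (up to 0.0849). The most abundant myelin gene, Mbp, had a difference of -0.05 that did not pass, with 6 of its 7 other probe sets of opposite sign and a value of 0.06 after quantile normalization. Pmp22, named above, is not on the list.

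Among precursors of the oligodendrocyte the call was a fall. Gpr17, a receptor of cells about to myelinate, ranged from 8.55 to 9.28 (median 8.93) in young and from 8.04 to 8.39 (median 8.27) in aged impaired samples and fell by 0.71 ± 0.12 (1.64-fold, adjusted p = 0.00532). It was the only call among 16 precursor genes (6.25% fell, against 0.594% of all named genes, 0 rose, median -0.06), with Olig2 at -0.31 ± 0.10 and Bcas1, of newly formed oligodendrocytes, at 0.57 ± 0.17. Leaving out any 1 sample kept the call of Gpr17 (adjusted p at most 0.0146).

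All 17 tested genes of newborn neurons and their progenitors had a lower mean in the aged impaired samples, with a median difference of -0.24. Of them 2 fell (11.8%, against 0.594% of all named genes). Sox11, a transcription factor of immature neurons, ranged from 9.20 to 9.56 (median 9.34) in young and from 8.60 to 8.98 (median 8.75) in aged impaired samples (-0.58 ± 0.09, 1.50-fold lower, adjusted p = 0.00232), and its 5 other probe sets were lower as well. Dpysl3, of growing axons, ranged from 9.76 to 10.21 (median 10.02) in young and from 9.24 to 9.68 (median 9.50) in aged impaired samples (-0.50 ± 0.08, adjusted p = 0.00535). Neither gene's groups overlapped. Sox4 (-0.24 ± 0.07), Sox2, of stem cells (-0.27 ± 0.08), Nes (-0.59) and Neurod1 (-0.28) did not pass. The 2 calls stood without any 1 sample, and with the myelin measure as a covariate 0 fell and the median was -0.22.

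Among 16 cell cycle genes 1 fell (6.25%, against 0.594% of all named genes) and the median was 0.06. Rrm2, which makes deoxynucleotides for replication, ranged from 6.37 to 6.97 (median 6.65) in young and from 5.68 to 6.33 (median 6.12) in aged impaired samples (-0.65 ± 0.15, adjusted p = 0.0389), a call that ended without any 1 of 9 samples (up to 0.0917). Ccnd2, a cyclin of neural progenitors, had -0.15 ± 0.08, with 1 of its 6 other probe sets of opposite sign. Of 12 genes of senescence and p53 0 were called, with a median of -0.06, and Cdkn1b had the lowest p (-0.41 ± 0.14, adjusted p = 0.157).

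Neuronal and synaptic transcripts were called rarely, as were named genes as a whole (1.9%). In lists of this size 0 calls are close to that share, here and in the other lists with 0 called. Such counts are not a result about the members. Of 23 presynaptic genes 0 were called, with a median difference of 0.0080 and values from -0.16 to 0.14. Syp, a synaptic vesicle protein, ranged from 13.31 to 13.50 (median 13.42) in young and from 13.21 to 13.38 (median 13.25) in aged impaired samples (-0.13 ± 0.06), Snap25 had -0.16 ± 0.11 and the vesicular glutamate transporter Slc17a7 -0.14 ± 0.10. Of 21 postsynaptic genes of glutamate synapses 0 were called (median -0.0059). Camk2a, the kinase of synaptic plasticity, had 0.44 ± 0.22 on its brightest probe set, and 2 of its 4 other probe sets were of opposite sign. Of 16 genes of inhibitory neurons and their receptors 0 were called (median -0.06), with Gabra2, a GABA receptor subunit, of lowest p (-0.54 ± 0.15, adjusted p = 0.0832). A dimmer probe set of Gabra2 was called lower (-0.43, adjusted p = 0.0188), while another had a difference of -0.50 that did not pass. Of 19 calcium channels and pumps 0 were called (median -0.06), with Cacna1a at -0.34 ± 0.13 and 1 of its 2 other probe sets of opposite sign (0.58). The standard errors of the genes named here, from 0.06 (Syp) to 0.22 (Camk2a), limit what can be detected for a single gene. Over all tested probe sets the median standard error was 0.124.

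By subfield, 1 of 10 CA1 genes fell (10%, against 0.594% of all named genes) and the median was -0.16. Lypd1, which modulates nicotinic receptors, ranged from 10.04 to 10.52 (median 10.24) in young and from 9.72 to 10.03 (median 9.84) in aged impaired samples (-0.38 ± 0.09, adjusted p = 0.0403), a call that ended without any 1 of 7 samples (up to 0.0918). Mpped1 (-0.28 ± 0.07) and Ccn3 (-0.34 ± 0.12) did not pass (adjusted p = 0.0660 and 0.148), and 9 of the 10 had a lower mean. Of 12 CA2 and CA3 genes 0 were called (median -0.02), with Rgs14, a brake on plasticity in CA2, at -0.19 ± 0.12. Of 14 dentate granule genes 0 were called (median -0.10), with Calb1, a calcium buffer, at -0.13 ± 0.07 and 1 of its 2 other probe sets of opposite sign near 0.

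Genes induced within minutes by neuronal activity had 1 fall in 25 tested (4.00%, against 0.594% of all named genes) and a median of -0.08. Nr4a2, a nuclear receptor needed for memory formation, ranged from 11.20 to 11.79 (median 11.64) in young and from 10.95 to 11.29 (median 11.16) in aged impaired samples (-0.46 ± 0.10, adjusted p = 0.0313), with overlap, and its 3 other probe sets were lower as well. The call ended without any 1 of 8 samples (up to 0.0761). Egr1 had -0.24 ± 0.11, and Arc, of dendrites, -0.30, and neither passed.

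**Figure D3:**
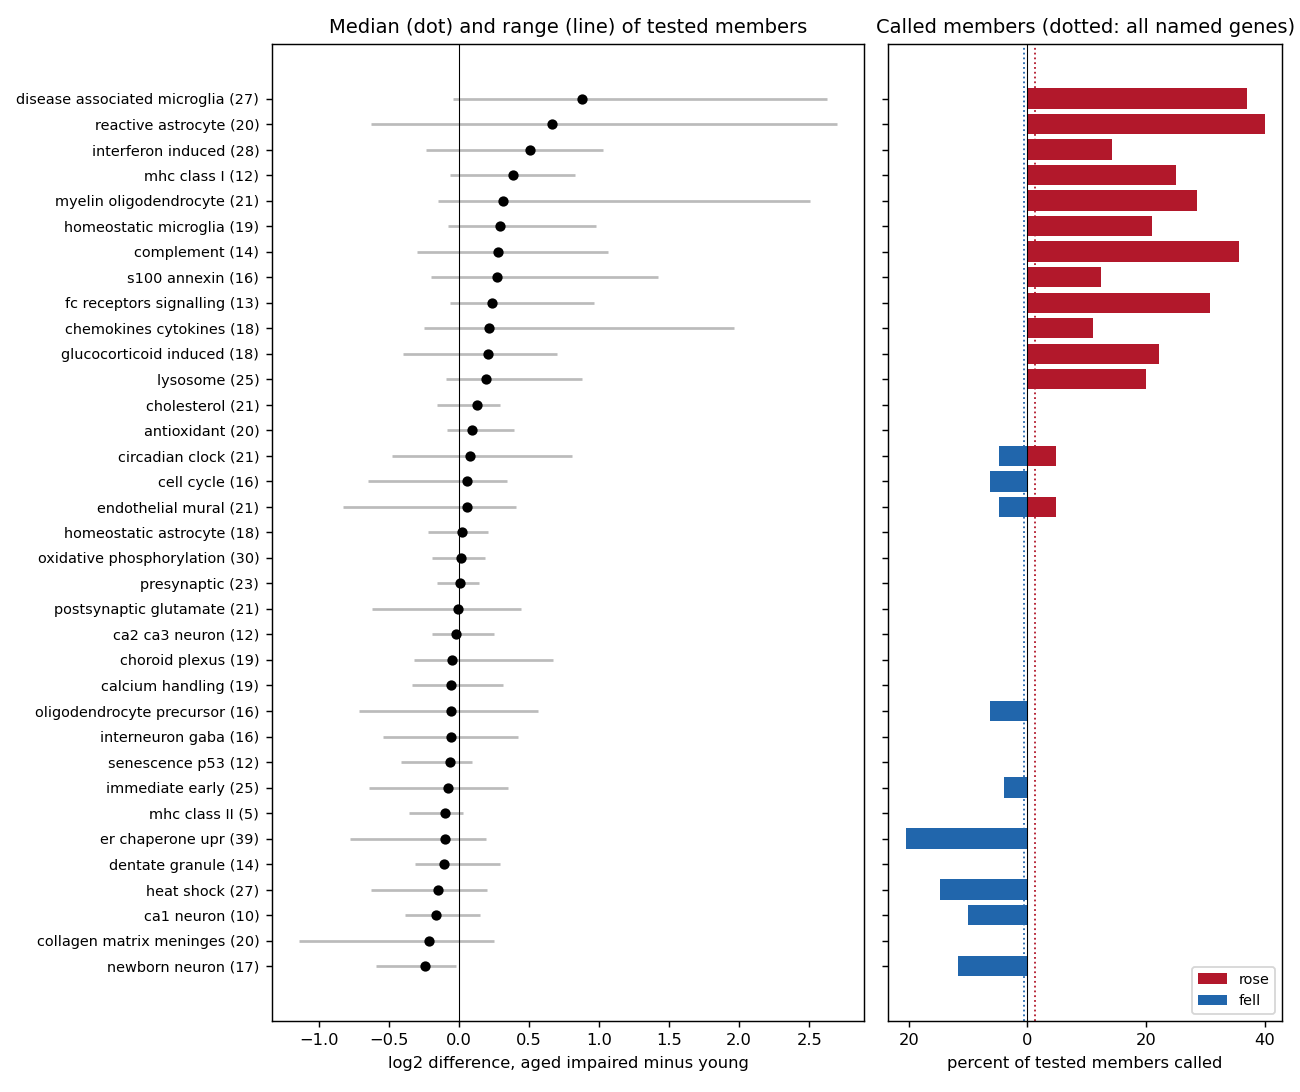
For each gene list with 5 or more tested genes (number in parentheses), the left panel plots the median (dot) and range (line) of the log2 differences between aged impaired and young samples, and the right panel the percent of members that rose (red, right) or fell (blue, left), with the percent of all named genes as dotted lines. Medians run from -0.24 for newborn neuron genes to 0.88 for disease-associated microglia, the presynaptic list lies at 0.0080, and the 39 genes labelled er chaperone upr (endoplasmic reticulum chaperones and unfolded protein response) include 20.5% that fell.

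Of 21 clock genes 1 rose and 1 fell (4.76% each, against 1.3% and 0.594% of all named genes). Dbp rose, as described, and Arntl, the activator of the clock whose level runs opposite in phase to that of Dbp, fell. Arntl ranged from 9.39 to 9.50 (median 9.44) in young and from 8.79 to 9.24 (median 9.07) in aged impaired samples (-0.39 ± 0.08, 1.31-fold lower, adjusted p = 0.0249), with no overlap. A dim second probe set of Arntl had a difference of 0.11, and the call ended without aged impaired replicates 2 or 6 or young replicate 6 (adjusted p up to 0.0598). Per1 (0.35 ± 0.12), Tef, a relative of Dbp (-0.26 ± 0.08), and Bhlhe41 (-0.48 ± 0.18) did not pass. The median over the 21 genes was 0.08. The labels do not name the hour of collection, and its part in these values was not tested. The E-box CACGTG, which the clock activators bind, was in promoters of 2187 of 27025 genes (8.093%). It was in 5 of 18 list members with a promoter (27.8%), and in 0 of the 2 called members.

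Genes induced by glucocorticoid, the stress hormone, rose in 4 of 18 (22.2%, against 1.3% of all named genes), with 0 that fell and a median of 0.21. Sgk1, a kinase, ranged from 10.92 to 11.22 (median 11.15) in young and from 11.38 to 12.31 (median 11.57) in aged impaired samples (0.57 ± 0.14, adjusted p = 0.0400) without overlap, with 1 aged impaired sample far above the group's median of 11.57. Zbtb16, a transcription factor (0.44 ± 0.10), Nfkbia, an inhibitor of NF-kappa-B (0.36 ± 0.09), and Slc2a1, the glucose transporter of the blood-brain barrier (0.41 ± 0.08), rose as well (adjusted p = 0.0296, 0.0403 and 0.0188). Fkbp5 and Tsc22d3, which are widely used as readouts of the hormone, had 0.12 and 0.13, Mt2 had 0.70 ± 0.20, and the receptor Nr3c1 -0.22 ± 0.08, and none passed. Nr3c1 had 1 of 4 other probe sets of opposite sign, and Tsc22d3 1 of 2. The calls of Sgk1 and Nfkbia ended without any 1 of 7 and 9 samples (adjusted p up to 0.0856 and 0.0856), and that of Zbtb16 without aged impaired replicates 2 or 6 or young replicates 1 or 6 (up to 0.0736). Without young replicate 6 the count was 0, without aged impaired replicate 2 it was 1, and without aged impaired replicate 6 it was 2.

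Metabolic gene lists had 0 calls, which at their size is close to the 1.9% called among all named genes. Of 30 genes of oxidative phosphorylation 0 were called, with a median of 0.01 and values from -0.19 (Atp5b) to 0.19 (Ndufa2). Of 21 genes of cholesterol synthesis and transport 0 were called (median 0.13, 18 with a higher mean), with Fdft1 of lowest p (0.23 ± 0.06, adjusted p = 0.0728). A dimmer probe set of Sc5d, also on this list, was called lower (-0.55, adjusted p = 0.0344). Of 20 antioxidant genes 0 were called (median 0.09), with Gstm1 at 0.26 ± 0.11 and 1 of its 3 other probe sets of opposite sign. Among 16 calcium-binding proteins of the S100 family and annexins 2 rose (12.5%, against 1.3% of all named genes, median 0.27). S100a4, which macrophages and fibroblasts make, ranged from 6.14 to 7.21 (median 6.61) in young and from 7.88 to 8.52 (median 8.08) in aged impaired samples (1.42 ± 0.23, adjusted p = 0.00391), with no overlap, and the other was S100a6.

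Of 21 genes of endothelial and mural cells 1 rose (Slc2a1) and 1 fell (4.76% each, against 1.3% and 0.594% of all named genes). Vegfc, a growth factor of lymphatic vessels, had the largest fall of the called genes, from a young range of 7.59 to 8.08 to an aged impaired range of 6.75 to 7.31 (-0.82 ± 0.14, 1.77-fold lower, adjusted p = 0.00574), and its 2 other probe sets were lower. Cldn5, of tight junctions, had -0.36 ± 0.12 and Pecam1 0.18. The call of Slc2a1 ended without young replicate 6 (adjusted p = 0.0505). Of 20 genes of collagen, matrix and meninges 0 were called and 15 had a lower mean (median -0.22), with Col1a1 at -1.14 ± 0.31 (adjusted p = 0.0697), Col3a1 at -0.80, and Sparc at 0.25 ± 0.08.

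Transcripts of other tissues that could be present were measured beside these groups. Of 19 choroid plexus genes 0 were called (median -0.05). Of blood leukocyte markers only 4 of 21 were tested and the rest were below the filter or unnamed, and 1 rose (against 1.3% of all named genes): Ighm, the heavy chain of IgM, ranging from 7.71 to 8.68 (median 8.11) in young and from 8.99 to 9.86 (median 9.26) in aged impaired samples (1.19 ± 0.23, adjusted p = 0.0154), with 3 of its 4 other probe sets of opposite sign. The mean of the 4 markers ran from 6.79 to 7.73 in aged impaired and from 5.97 to 7.92 in young samples. Of erythroid genes 2 were tested and 0 were called. The part of blood cells in the rise of microglial genes was not tested.

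The aged unimpaired samples share the young samples as their control. In the aged unimpaired samples Cst7 differed from young by 1.91 ± 0.39 (adjusted p = 0.0647) and from aged impaired by 0.72 ± 0.39 (aged impaired minus unimpaired, adjusted p = 0.671). For Manf these were -0.29 ± 0.08 (adjusted p = 0.272) and -0.36 ± 0.08 (adjusted p = 0.249), and for Hspa5 -0.23 ± 0.09 and -0.38 ± 0.09 (adjusted p = 0.271). For Gpr17 and Sox11 the aged groups differed by -0.10 ± 0.12 and -0.11 ± 0.09, and for Pisd-ps3 by -0.01 ± 0.13, and none of these passed. Of the 249 genes called against young, 18 were also called in aged unimpaired against young (0.137% of all probe sets were), and 1 differed between the aged groups (0.0111% of all probe sets were). That gene was Dbp, at 0.62 ± 0.07 (adjusted p = 0.00288), with aged unimpaired values of 10.43 to 10.77, all below the lowest aged impaired value of 11.01. Of the 249, 140 reached an unadjusted p under 0.05 between the aged groups. The same aged impaired samples chose these genes, so that count can be high from the choice alone and is not a result about memory state. St8sia6 (0.42 ± 0.08), Wnt9a (0.81 ± 0.15), Qk (0.34 ± 0.07) and Lix1l (-0.41 ± 0.09) were the called genes of next lowest p, with adjusted p from 0.122 to 0.248. For the other called genes a difference between impaired and unimpaired memory at old age was not detected at this number of arrays, which does not show that the aged groups were alike.

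As lists, the median difference from young was 0.88 in aged impaired and 0.45 in aged unimpaired samples for disease-associated microglia, 0.66 and 0.37 for reactive astrocytes, 0.51 and 0.30 for interferon-induced genes and 0.32 and 0.09 for myelin genes. It was -0.10 and -0.05 for chaperones of the endoplasmic reticulum, -0.15 and -0.07 for heat shock genes, and -0.24 and -0.17 for newborn neuron genes. Not every list had the larger median in aged impaired samples. The medians were 0.279 and 0.284 for complement, 0.23 and 0.26 for Fc receptor signalling, and 0.21 and 0.24 for chemokines and cytokines. Except for Dbp among clock genes, 0 members of any list were called between the aged groups.

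The aged impaired samples were not alike in the strength of the glial lists. The mean of the disease-associated microglia genes was 10.31 in aged impaired replicate 2, 10.10 in replicate 6 and from 9.67 to 9.83 in the other 4, while the young samples ran from 8.92 to 9.29. Reactive astrocyte genes averaged 9.60 and 9.31 in the same 2 samples, from 8.69 to 8.93 in the other 4, and from 8.20 to 8.49 in young samples. Interferon-induced genes were highest in replicates 2 (8.80) and 1 (8.65) and lowest in replicate 5 (8.20), which lay within the young range of 7.70 to 8.29. Myelin genes ran from 11.10 to 11.31 in aged impaired and from 10.50 to 11.04 in young samples, highest in aged impaired replicate 6 and young replicate 4. Chaperone genes of the endoplasmic reticulum lay between 10.40 and 10.58 in aged impaired and between 10.55 and 10.74 in young samples, and heat shock genes between 11.27 and 11.35 and between 11.47 and 11.57. Choroid plexus genes did not follow this order, with 10.14 in replicate 2, 9.52 in replicate 6 and 10.63 in replicate 3. Such a spread was also present among the aged unimpaired samples. There replicate 6 had 10.195 for disease-associated microglia and 9.38 for reactive astrocytes, against group medians of 9.56 and 8.66.

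**Figure D4:**
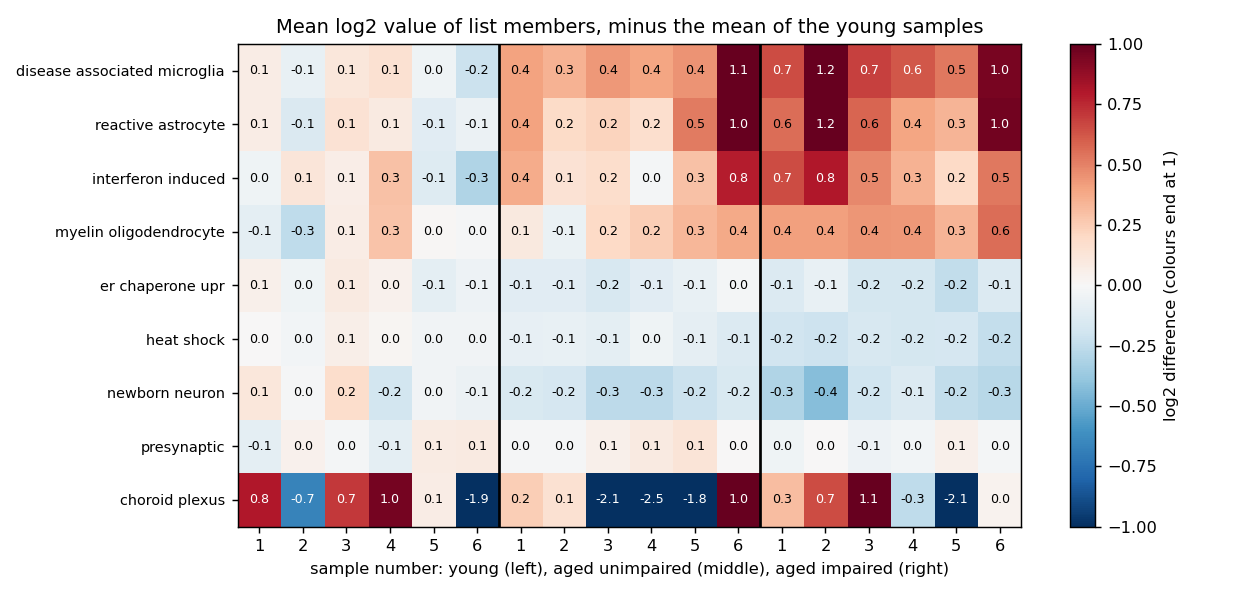
Mean log2 value of the tested members of 9 gene lists (rows) in each of the 18 samples (columns, by group and sample number), minus the mean of the 6 young samples, with the value printed in each cell and colours ending at a difference of 1. Aged impaired replicates 2 and 6 have the highest microglia and astrocyte values of their group, and the choroid plexus row varies within every group.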

How the data were processed

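Hippocampal RNA of 6 aged impaired, 6 young and 6 aged unimpaired samples was measured on 1 array each. The authors deposited linear MAS5 signal intensity values per probe set, per the submitters' processing notes, and each array's 2%-trimmed mean was 150. Signals were rescaled here to a common trimmed mean of 500 before 16 was added and log2 taken; control probe sets and the 40% of lowest mean were left out, leaving 27022. limma 3.58.1 in R 4.3.3 fitted 3 group means over all 18 samples, with Benjamini-Hochberg adjustment over all probe sets. The fit was tested on simulated data with 100 changes of each size. It recovered 42% of changes of 0.5 and 84% of changes of 1, and 4.55% of its calls were false.

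Genes were named from the platform annotation (34945 probe sets with 1 symbol, 932 with several, 9160 with none; 34741 matched RefSeq) and taken on their brightest probe set. The text names Cst7 and Manf, the 15 largest rises and 15 largest falls among called genes with at least 5 of 6 samples beyond the young median, the 10 of lowest p in each direction, up to 6 of lowest p in each list, and up to 5 called genes of lowest p between the aged groups. Other list members were named after their values were seen. The members and lists were chosen with earlier results of these data known. Alternatives covered scaling, offset, filters, moderation, array weights, covariates, the replicate block and leaving out each sample.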

Additional observations from a re-analysis of the deposited data

Results flagged for a closer look

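In each group of 6, the highest or lowest sample of each named gene was set against the gap to its nearest neighbour over the group's range (Dixon's ratio, at its 95% critical value). Of 340 such groups 18 had a sample past that value, and chance alone marks about 1 in 20 groups.

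Among young samples, Clec7a was low in replicate 6 (4.392), Klk6 in replicate 2 (5.858), Xbp1 in replicate 5 (12.39), Cd68 in replicate 3 (7.462), Cd14 in replicate 2 (6.073), Slc17a7 in replicate 1 (12.72), Per1 in replicate 4 (8.322) and Timp1 in replicate 2 (5.222). Mpeg1 (9.423), Pdia3 (12.43) and Ptprc (8.013) were high in young replicate 4. Among aged impaired samples, S100b (12.26), Per1 (9.578) and Sparc (12.65) were high in replicate 1. Creld2 (9.274) and Tsc22d3 (10.89) were high in replicate 2, where Syvn1 (9.913) was low, and Slc2a6 was high in replicate 5 (8.856).

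Dbp was the called gene that also differed between the aged groups, by 0.6225 ± 0.07 (aged impaired minus aged unimpaired, limma adjusted p = 0.00288).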

How the results depend on the processing

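Against 440 called probe sets (278 higher, 162 lower), 193 were called with no filter on dim probe sets (132 and 61), 241 with only the 12 samples compared (160 and 81), and 14 with the myelin minus presynaptic measure as a covariate (9 and 5). With that measure computed without Klk6, an alternative chosen after seeing the data, 28 were called (15 and 13). With a 60% filter 253 fell. Leaving out 1 sample gave 228 to 418 calls, 138 to 277 higher and 80 to 163 lower. Of the called genes, 1 differed between the aged groups without any 1 sample, 2 with trended and robust moderation, and 0 with either form of the myelin covariate. The fit of the 12 samples holds no aged unimpaired samples and gives no such count.

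Samples with the same number did not deviate together (r = 0.0184, -0.1, 0.0957, -0.0123, 0.0569 and -0.077), so the numbers were not taken as a pairing. With the replicate number as a block 240 probe sets were called (163 and 77), 27 of the 101 called genes named lost their call, and 0 differed between the aged groups.

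Of those 101 genes, 7 were called in every alternative they entered (Mpzl3 in 24, since the 60% filter removes it, and the other 6 in 25), 48 lost the call with a composition covariate alone, and 41 lost it without at least 1 sample. Of 6893 single-gene and list values 20 changed sign. With the myelin measure these were Syp (0.0075), Ccn3 (0.014), Ero1b (-0.092) and the medians of complement (-0.014), chemokine (-0.0023), myelin (-0.033), cell cycle (-0.077), clock (-0.063), interneuron (0.051) and CA2 and CA3 genes (0.14), and without Klk6 in it Ero1b (-0.043) and the medians of cell cycle (-0.032), clock (-0.063), interneuron (0.028) and CA2 and CA3 genes (0.10). Mbp was 0.060 after quantile normalization and from -0.15 to 0.015 without 1 sample. The covariate follows the groups compared. It is built from the myelin and presynaptic lists, so the values and calls of their members under it, Syp among them, are partly fixed in advance. Otherwise the cause was not tested. The number of arrays limits the precision.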
